A study of Homo sapiens with 6 samples.

Results

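The MHC class II genes of Molm13 cells were examined as a group of 10, of 19845 genes in the deposited count table. The members are HLA-DRA, HLA-DRB1, HLA-DPA1, HLA-DPB1, HLA-DQA1, HLA-DQB1, HLA-DMA, HLA-DMB, CD74 and CIITA, found by their symbols. HLA-DRA was selected on its rise in these libraries, so its values are given as a description with no test, and the others were chosen because they belong to the same pathway. Molm13 is an established acute myeloid leukemia (AML) line with a rearranged MLL gene. All cells expressed Cas9 and carried a guide vector under puromycin selection, and 3 libraries received control guides against sequences that the cells do not need (sgCtrl) while 3 received guides against COX4I1 (sgCOX4I1), a nuclear-encoded subunit of Complex IV. Each of the 6 libraries had a guide of its own, so the spread within a group includes differences between guides. The samples were bulk cultures of edited cells. In such samples, a change in the number of cells that express a gene and a change in RNA per cell cannot be told apart.

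MHC class II molecules are heterodimers of an alpha and a beta chain that carry peptides from the endosomal pathway to the cell surface for CD4+ T cells. The invariant chain CD74 escorts newly made dimers to the endosome, where proteases trim it, and HLA-DM then releases its last fragment and lets peptide bind. CIITA is the coactivator that class II promoters depend on, and it acts through the RFX, CREB and NF-Y factors on a conserved promoter module. Class II is constitutive on B cells and dendritic cells, is present on monocytes and many myeloid leukemias, and is induced elsewhere by interferon gamma.

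Class II promoters are known for an X box followed at a short distance by a Y box, which is an inverted CCAAT box, and these sequences are shown because they let a reader see that arrangement in the member promoters. RefSeq windows of GRCh38.p14, from 250 bases before to 50 bases after a gene's start, were matched for 8 of the 10 members, and those of HLA-DRA and CIITA were not analysed here. Each window was searched on both strands for ACNGATG, taken from the X box, and for ATTGG, taken from the Y box, letters chosen after the windows had been read, and the searches do not overlap. ACNGATG occurred in 7.65% and ATTGG in 34.6% of 35116 windows, while ACNGATG followed 15 to 40 bases later by ATTGG occurred in 60 windows, or 0.171%. The pair was found in 3 members, on the strand of the gene in each, and is written in capitals below, 5′ to 3′.
HLA-DRB1 (chr6:32589880-32589933, minus strand): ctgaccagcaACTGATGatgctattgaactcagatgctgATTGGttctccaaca
HLA-DQB1 (chr6:32666731-32666784, minus strand): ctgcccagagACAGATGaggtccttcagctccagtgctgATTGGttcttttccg
HLA-DMA (chr6:32953162-32953216, minus strand): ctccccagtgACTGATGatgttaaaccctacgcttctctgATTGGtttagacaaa
The letters between the capitals numbered 22 in HLA-DRB1 and HLA-DQB1 and 23 in HLA-DMA. A match of letters is a description of the sequence and not of binding, and binding was not measured.

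Library totals ranged from 17241014 to 30861943 counts, and a count of 0 in a library allows up to 0.0972 to 0.174 CPM (counts scaled to library size with TMM factors), from counting error only. The targeted gene COX4I1 stood at 513, 502 and 463 CPM in sgCtrl #1, #2 and #3, against 132, 378 and 133 CPM in sgCOX4I1 #1, #2 and #3. It was below every sgCtrl library in each, with the smallest loss in sgCOX4I1 #2 (log2 fold change -1.21, SE 0.29, adjusted p = 0.0512, edgeR quasi-likelihood test, Benjamini-Hochberg). All 10 AML line markers had enough counts to be tested, and their summed level was 2534 to 3453 CPM in sgCtrl and 3193 to 4282 CPM in sgCOX4I1. The largest part of that sum is LYZ, the lysozyme of myeloid cells, with means of 1590 and 2717 CPM and groups that overlapped (log2 fold change 0.77, adjusted p = 0.0534 in edgeR, and called by limma-voom). The part of LYZ in the class II values was not tested. Of the 10 markers, 3 had log2 fold changes above 0, the median was -0.09, and edgeR and DESeq2 called only MPO, a neutrophil granule peroxidase, with a log2 fold change of -1.06. Across the 11861 genes tested, 247 were called at an adjusted p under 0.05, which is 2.08%, with 126 higher in sgCOX4I1 (1.06%) and 121 lower. The median log2 fold change of all tested genes was -0.0023.

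HLA-DRA encodes the alpha chain of HLA-DR and varies little between people, and its gene spans 32439878 to 32445046 of chromosome 6 (GRCh38, plus strand). Its level was 3.76, 3.10 and 3.44 CPM in sgCtrl #1, #2 and #3, against 7.97, 7.21 and 9.18 CPM in sgCOX4I1 #1, #2 and #3. Every sgCOX4I1 library was above every sgCtrl library, and the lowest of them stood well clear of the highest sgCtrl library. The group means were 3.43 ± 0.33 CPM (SD, n = 3) and 8.12 ± 0.993 CPM (SD, n = 3), a log2 fold change of 1.25 with SE 0.17, or 2.38-fold. Ordered by log2 fold change, HLA-DRA stood at place 28 of the 11861 tested genes. The counts behind these values were modest, from 57 to 70 in sgCtrl and from 124 to 287 in sgCOX4I1, and 17.6% of tested genes had a lower mean CPM.

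HLA-DRB1 encodes the polymorphic beta chain that pairs with HLA-DRA. Its level was 2.83, 4.24 and 2.36 CPM in sgCtrl, against 4.94, 4.53 and 5.05 CPM in sgCOX4I1, libraries #1 to #3. The groups did not overlap, but the highest sgCtrl library came close to the lowest sgCOX4I1 library. The log2 fold change was 0.63 with SE 0.23, and the call was not reached (adjusted p = 0.17, edgeR quasi-likelihood test, Benjamini-Hochberg). The ratio of HLA-DRA to HLA-DRB1 CPM was 1.33, 0.731 and 1.46 in sgCtrl and 1.61, 1.59 and 1.82 in sgCOX4I1, again without overlap, and was not tested because HLA-DRA was selected on its rise.

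HLA-DQB1, the beta chain of HLA-DQ, stood at 6.10, 7.11 and 8.30 CPM in sgCtrl, against 9.40, 10.75 and 11.83 CPM in sgCOX4I1. The groups were separate, and the log2 fold change was 0.57 with SE 0.16 (adjusted p = 0.0757, edgeR quasi-likelihood test, Benjamini-Hochberg). HLA-DQA1, the alpha chain of HLA-DQ, had only 1, 0 and 0 counts in sgCtrl and 1, 2 and 9 counts in sgCOX4I1. It was too low to be tested, so the alpha and beta chains of HLA-DQ stood at very different levels. The class II chains have near-identical paralogs and many alleles, and how such reads were shared out is not given in the sources used here, so levels of single chains are uncertain.

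HLA-DPA1, the alpha chain of HLA-DP, was measured near the lower limit, at 0.545, 0.489 and 0.540 CPM in sgCtrl, against 0.891, 1.395 and 1.503 CPM in sgCOX4I1. The counts were 10, 9 and 11 against 20, 24 and 47, and the groups did not overlap. Its log2 fold change of 1.26 (SE 0.37) was the largest of the tested members, but the adjusted p was 0.0979 (edgeR quasi-likelihood test, Benjamini-Hochberg). HLA-DPB1, the beta chain of HLA-DP, had 0, 5 and 12 counts in sgCtrl and 5, 4 and 15 in sgCOX4I1, which overlap, and was too low to be tested. The exons of HLA-DPA1 and HLA-DPB1 lie on opposite strands and overlap over 1.67% of the HLA-DPA1 exon length, and the strand setting of the counting is not given in the sources used here.

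HLA-DMA and HLA-DMB encode the alpha and beta chains of HLA-DM, the endosomal editor that loads peptides onto class II dimers. HLA-DMA stood at 5.50, 5.32 and 6.29 CPM in sgCtrl, against 8.06, 9.53 and 10.84 CPM in sgCOX4I1. The groups were clearly separate, with means of 5.71 ± 0.514 and 9.48 ± 1.39 CPM (SD, n = 3 each). HLA-DMA rose 1.66-fold (log2 fold change 0.73, SE 0.16, adjusted p = 0.0347, edgeR quasi-likelihood test, Benjamini-Hochberg) and was the only one called of the 7 tested members besides HLA-DRA. The call was lost without sgCtrl #2 (adjusted p = 0.22), without sgCOX4I1 #2 (adjusted p = 0.125) and without sgCOX4I1 #3 (adjusted p = 0.145), in the same edgeR test, and the log2 fold change stayed between 0.62 and 0.84 with each library left out. HLA-DMB stood at 2.07, 3.64 and 2.21 CPM in sgCtrl, against 2.90, 4.42 and 6.33 CPM in sgCOX4I1, and the groups overlapped. Its log2 fold change was 0.80 with SE 0.30 and an adjusted p of 0.186 (edgeR quasi-likelihood test, Benjamini-Hochberg). Exons of an annotated gene that overlaps both cover 6.35% of the HLA-DMA and 9.49% of the HLA-DMB exon length on the same strand. BRD2 exons cover 2.18% of the HLA-DMA exon length on the opposite strand. The ratio of HLA-DMA to HLA-DMB CPM was 2.32 ± 0.75 in sgCtrl and 2.22 ± 0.539 in sgCOX4I1 (SD, n = 3 each; two-sided exact permutation p = 0.9, where 0.1 is the smallest p that 3 against 3 allows).

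CD74, the invariant chain, was by far the most abundant member, at 232, 224 and 241 CPM in sgCtrl, against 228, 263 and 253 CPM in sgCOX4I1. The groups overlapped, and the log2 fold change was 0.09 with a 95% interval from -0.07 to 0.26 (adjusted p = 0.578, edgeR quasi-likelihood test, Benjamini-Hochberg). The interval leaves out a change of the size seen in HLA-DRA. Of all tested genes, 95% had a lower mean CPM than CD74, against at most 22.6% for any other tested member. The ratio of CD74 to HLA-DRA CPM was 61.8, 72.3 and 70.1 in sgCtrl and 28.5, 36.5 and 27.5 in sgCOX4I1, a separation that follows from the choice of HLA-DRA and was not tested.

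CIITA, the coactivator gene on chromosome 16 from 10866222 to 10943021, stood at 5.23, 6.95 and 5.80 CPM in sgCtrl, against 7.57, 8.66 and 10.68 CPM in sgCOX4I1. Every sgCOX4I1 library was above every sgCtrl library, and the closest values were sgCtrl #2 and sgCOX4I1 #1. The log2 fold change was 0.59 with SE 0.17 and an adjusted p of 0.0979 (edgeR quasi-likelihood test, Benjamini-Hochberg). Annotated exons of other genes cover 10.5% of the CIITA exon length on its own strand and 11.5% on the opposite strand. The ratio of HLA-DRA to CIITA CPM was 0.719, 0.445 and 0.593 in sgCtrl and 1.05, 0.832 and 0.859 in sgCOX4I1. It was not tested because HLA-DRA was selected on its rise.

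**Figure D1:**
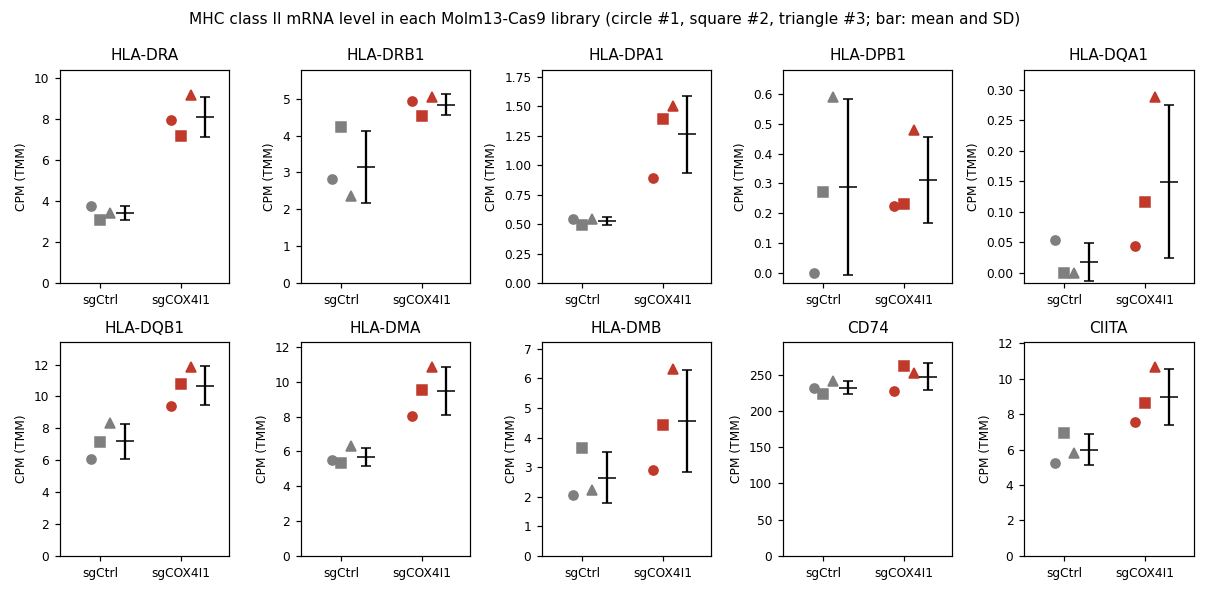
Level of each member (y axis, TMM-scaled CPM on a linear scale, a separate range per gene) in the 3 sgCtrl and 3 sgCOX4I1 libraries, with circles for #1, squares for #2 and triangles for #3 and a bar for the mean and SD. HLA-DRA goes from 3.10 to 3.76 CPM in sgCtrl to 7.21 to 9.18 CPM in sgCOX4I1, whereas CD74 and HLA-DMB overlap between groups.

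Counting over the members, 8 of 10 had enough counts for the test, and HLA-DPB1 and HLA-DQA1 did not. HLA-DPA1 met the filter, 0.513 CPM in at least 3 libraries, only with its sgCOX4I1 libraries counted, since 2 sgCtrl and 3 sgCOX4I1 libraries were over it. Of the 7 tested members other than HLA-DRA, 1 was called higher, against 1.06% of all tested genes, and none was lower. At an adjusted p under 0.05 and a 2-fold change together, none of these 7 passed by edgeR or limma-voom, and none of the 6 with an adjusted p in DESeq2, which gave none for HLA-DPA1, against 0.135% of all tested genes. All 7 had log2 fold changes above 0, from 0.09 to 1.26 with a median of 0.63. In 5 of the 7, every sgCOX4I1 library lay above every sgCtrl library, which was the case for 11.2% of all tested genes. Without HLA-DPA1, it held for 4 of 6, and the median log2 fold change of these 6 was 0.61. An unadjusted p under 0.05 was reached by 6 of the 7 and by 2054 of the 11861 tested genes, in the same edgeR fit. The members were picked with earlier results of these data known, so these counts describe the list and are not an independent check of its direction.

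Compared per length, as CPM per kilobase of the canonical GENCODE transcript, the order in sgCtrl was CD74 (141), HLA-DMA (5.22), HLA-DQB1 (4.47), HLA-DRA (2.78), HLA-DRB1 (2.57), HLA-DMB (1.958), CIITA (0.373), HLA-DPA1 (0.308), HLA-DPB1 (0.0719) and HLA-DQA1 (0.0115). Between neighbours in that order, HLA-DMA and HLA-DQB1, HLA-DRA and HLA-DRB1, HLA-DRB1 and HLA-DMB, and HLA-DPB1 and HLA-DQA1 overlapped over their libraries. In sgCOX4I1, HLA-DRA at 6.57 per kilobase overlapped HLA-DQB1 at 6.64 and no longer overlapped HLA-DRB1 at 3.96. CD74 remained apart at 150 per kilobase in sgCOX4I1. The canonical CIITA transcript is 16.1 kilobases long, so the length used weighs heavily on its place.

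The members differed in which sgCOX4I1 library was lowest. As a percentage of the sgCtrl mean, HLA-DRA was 232, 210 and 267 in sgCOX4I1 #1, #2 and #3, HLA-DMA was 141, 167 and 190, and CIITA was 126, 145 and 178. COX4I1 itself was 26.7, 76.7 and 27.0, so HLA-DRA was lowest where the most COX4I1 mRNA remained, but HLA-DMA and CIITA were lowest in sgCOX4I1 #1. Of the 8 tested members, 7 were highest in sgCOX4I1 #3, the deepest library, and CD74 was highest in sgCOX4I1 #2. Among the 1334 tested genes whose sgCOX4I1 libraries all lay above sgCtrl, 27% were highest in sgCOX4I1 #3, and all 6 members of that kind were. The part of sequencing depth or of the guide in this was not tested.

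**Figure D2:**
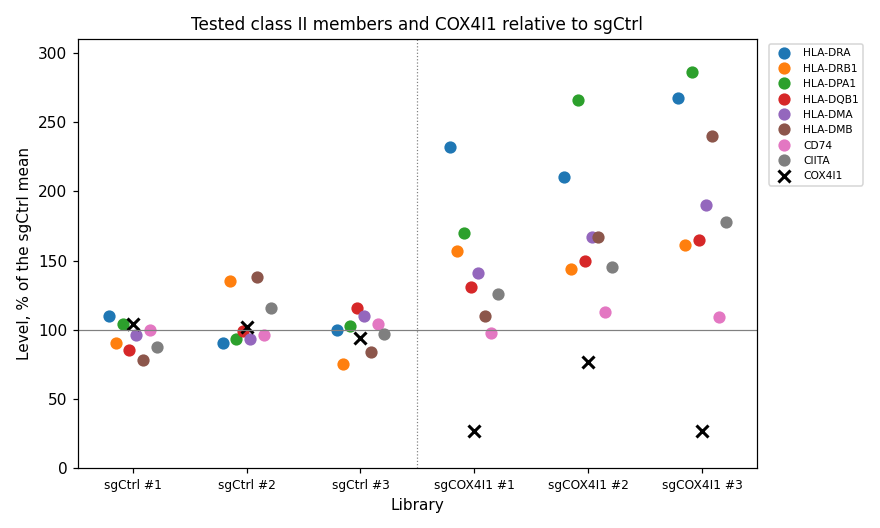
Level of the 8 tested members (coloured circles) and of COX4I1 (crosses) in each library (x axis), as a percentage of the sgCtrl mean (y axis, linear). HLA-DRA reaches 232, 210 and 267 percent in sgCOX4I1 while COX4I1 stands at 26.7, 76.7 and 27.0 percent, and CD74 lies between 98.0 and 113 percent.

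Of 7 other class II chains listed, 5 had an entry in the deposited counts, and HLA-DRB3 and HLA-DRB4 had none. HLA-DOB, which with HLA-DOA forms an inhibitor of HLA-DM, was the only one with enough counts. It stood at 8.12, 9.18 and 9.43 CPM in sgCtrl, against 8.33, 5.35 and 11.70 CPM in sgCOX4I1, a log2 fold change of -0.05 with SE 0.22 (adjusted p = 0.94, edgeR quasi-likelihood test, Benjamini-Hochberg). The 3 sgCOX4I1 libraries spread widely around the sgCtrl values. The ratio of HLA-DOB to HLA-DMA CPM was 1.48, 1.72 and 1.5 in sgCtrl and 1.03, 0.561 and 1.08 in sgCOX4I1 (two-sided exact permutation p = 0.1, the smallest that 3 against 3 allows, and 0.3 after Benjamini-Hochberg adjustment over 3 ratios). The ratio of HLA-DOB to HLA-DMB CPM was 3.92, 2.52 and 4.27 in sgCtrl and 2.88, 1.21 and 1.85 in sgCOX4I1. These groups overlapped (two-sided exact permutation p = 0.2, and 0.3 after the same adjustment). A readthrough transcript shared with TAP2 covers 30.4% of the HLA-DOB exon length. HLA-DQA2, a little expressed alpha chain, had 2, 1 and 2 counts against 10, 3 and 4, and HLA-DRB5, HLA-DOA and HLA-DQB2 had at most 1 count in any library.

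Along the class II region of chromosome 6, from HLA-DRA at 32439878 to HLA-DPB1 ending at 33089696, the table holds 18 genes. Of the 13 class II chains there, 7 were tested, with log2 fold changes from -0.05 to 1.26. These include HLA-DRA, selected on its rise, and HLA-DPA1, which met the filter only with its sgCOX4I1 libraries counted. The remaining chains stood at 0.63 (HLA-DRB1), 0.57 (HLA-DQB1), -0.05 (HLA-DOB), 0.80 (HLA-DMB) and 0.73 (HLA-DMA). The 5 other genes are TAP1, TAP2, PSMB8 and PSMB9 of class I peptide supply and BRD2, a chromatin reader, and their log2 fold changes ran from -0.05 to 0.41 with a median of 0.14. None of the 5 was called by edgeR, DESeq2 or limma-voom, against 2.08% of all tested genes in edgeR. An unadjusted p under 0.05 in edgeR was reached by 1 of the 5 and by 2054 of the 11861 tested genes. Apart from HLA-DRA and HLA-DPA1, the members HLA-DRB1, HLA-DQB1, HLA-DMB and HLA-DMA lay above every one of these 5 genes in log2 fold change. HLA-DOB did not, and this is a description with no test between the kinds. CD74, on chromosome 5 from 150401637 to 150412969, and CIITA lie outside the region.

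**Figure D3:**
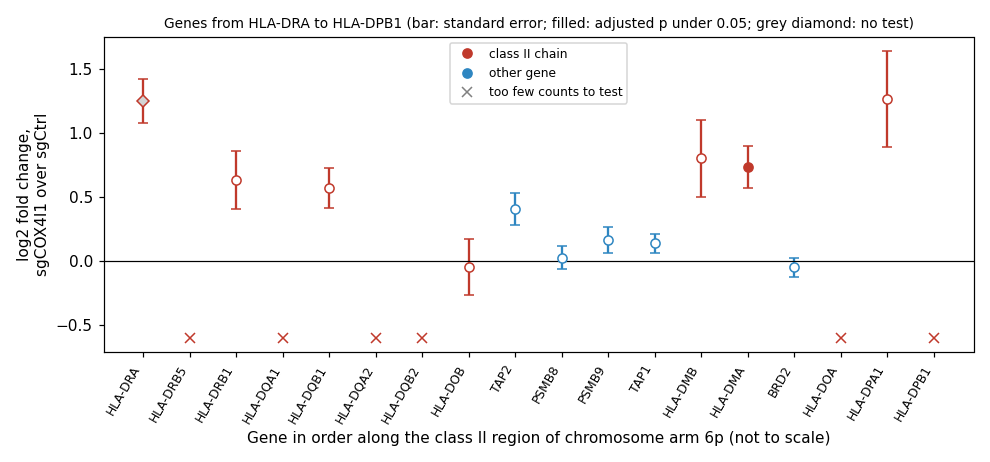
The log2 fold change of sgCOX4I1 over sgCtrl (y axis, bar for the standard error) of genes in their order along the class II region (x axis, equal steps), with class II chains in red, other genes in blue, filled circles for adjusted p under 0.05, a grey diamond for HLA-DRA, which has no test, and crosses at the bottom for genes too low to test. HLA-DRA, HLA-DRB1, HLA-DQB1, HLA-DMB, HLA-DMA and HLA-DPA1 lie between 0.57 and 1.26, whereas HLA-DOB and BRD2 lie at -0.05.

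The genes that act before and after the class II dimer were taken from fixed lists. The 11 promoter factors of class II include the RFX subunits, the NF-Y subunits, CREB1 and the coactivators CREBBP, EP300 and KAT2B. All were tested and none was called, against 2.08% of all tested genes, and their median log2 fold change was 0.03. The closest to a call were RFXAP, an RFX subunit, at 0.32 (adjusted p = 0.347), KAT2B, an acetyltransferase, at -0.28 (adjusted p = 0.366) and NFYA, an NF-Y subunit, at 0.13 (adjusted p = 0.41), in the Benjamini-Hochberg adjusted edgeR test. An unadjusted p under 0.05 was reached by 0 of the 11 and by 2054 of the 11861 tested genes in edgeR. DESeq2 and limma-voom called 0 of the 11. Beside the CIITA value of 0.59, the factors it works through had values nearer 0. CIITA was not called either (adjusted p = 0.0979, edgeR quasi-likelihood test), and the difference was not tested.

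Regulators of CIITA showed a single call of 5 tested, against 2.08% of all genes. PRDM1, known as a repressor of CIITA in plasma cells, rose from 9.79 ± 0.255 to 15.2 ± 1.76 CPM (SD, n = 3 each), a log2 fold change of 0.64 with SE 0.13 (adjusted p = 0.0237, edgeR quasi-likelihood test). The call of PRDM1 was lost without sgCtrl #2, sgCOX4I1 #2 or sgCOX4I1 #3 (adjusted p = 0.145, 0.107 and 0.104, edgeR), at log2 fold changes of 0.66, 0.62 and 0.56. PAX5 (0.25, adjusted p = 0.246) and IRF8 (0.13, adjusted p = 0.428), transcription factors of B cells and of myeloid and B cells, were not called in the Benjamini-Hochberg adjusted edgeR test. PRDM1 and CIITA both had higher values in sgCOX4I1, of which only PRDM1 was called.

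The input from interferon gamma, which induces CIITA through the kinases JAK1 and JAK2, had 1 call of 10 tested, against 2.08% of all tested genes, and that gene fell. An unadjusted p under 0.05 was reached by 5 of the 10 and by 2054 of the 11861 tested genes in edgeR. SOCS1, a feedback inhibitor of JAK signalling, stood at 16.89, 15.15 and 17.54 CPM in sgCtrl, against 6.10, 8.95 and 4.89 CPM in sgCOX4I1. It fell by 1.34 on the log2 scale (SE 0.18, adjusted p = 0.00296, edgeR quasi-likelihood test, Benjamini-Hochberg), with no overlap of the groups. The receptor chain IFNGR1 had a log2 fold change of 0.31 (adjusted p = 0.0979) and the phosphatase PTPN2 -0.24 (adjusted p = 0.114), neither of them called in the same edgeR test.

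In endosomal processing, 7 of 8 genes were tested, 1 rose (1.06% of all tested genes did) and none fell. All 7 had log2 fold changes above 0, as did 49.4% of all tested genes, with a median of 0.39, but IFI30 met the filter on low counts only through the sgCOX4I1 libraries. CTSL, the protease cathepsin L that can trim the invariant chain, rose from 27.4 ± 3.76 to 44.6 ± 4.39 CPM (SD, n = 3 each), a log2 fold change of 0.70 with SE 0.11 (adjusted p = 0.00622, edgeR quasi-likelihood test, Benjamini-Hochberg). The call of CTSL was lost without sgCtrl #2 (adjusted p = 0.0934) or sgCOX4I1 #2 (adjusted p = 0.0575) in edgeR, at log2 fold changes of 0.62 and 0.64. The aspartic protease CTSD at 0.84 (adjusted p = 0.0915), the cysteine protease CTSB at 0.39 (adjusted p = 0.189) and the thiol reductase IFI30 at 0.99 (adjusted p = 0.2) were not called in the same edgeR test. Of the 6 genes of surface turnover, including the ubiquitin ligases MARCH1 and MARCH8 that remove class II from the surface, 1 was called, against 2.08% of all tested genes. It was CD9, a tetraspanin, at 0.77 (adjusted p = 0.0149, edgeR quasi-likelihood test, Benjamini-Hochberg), while CD63, another tetraspanin (0.23, adjusted p = 0.206), MARCH1 (0.10) and MARCH8 (0.16) were not called. The call of CD9 was lost without sgCtrl #2 (adjusted p = 0.156) or sgCOX4I1 #2 (adjusted p = 0.104) in edgeR, at log2 fold changes of 0.76 and 0.69.

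**Figure D4:**
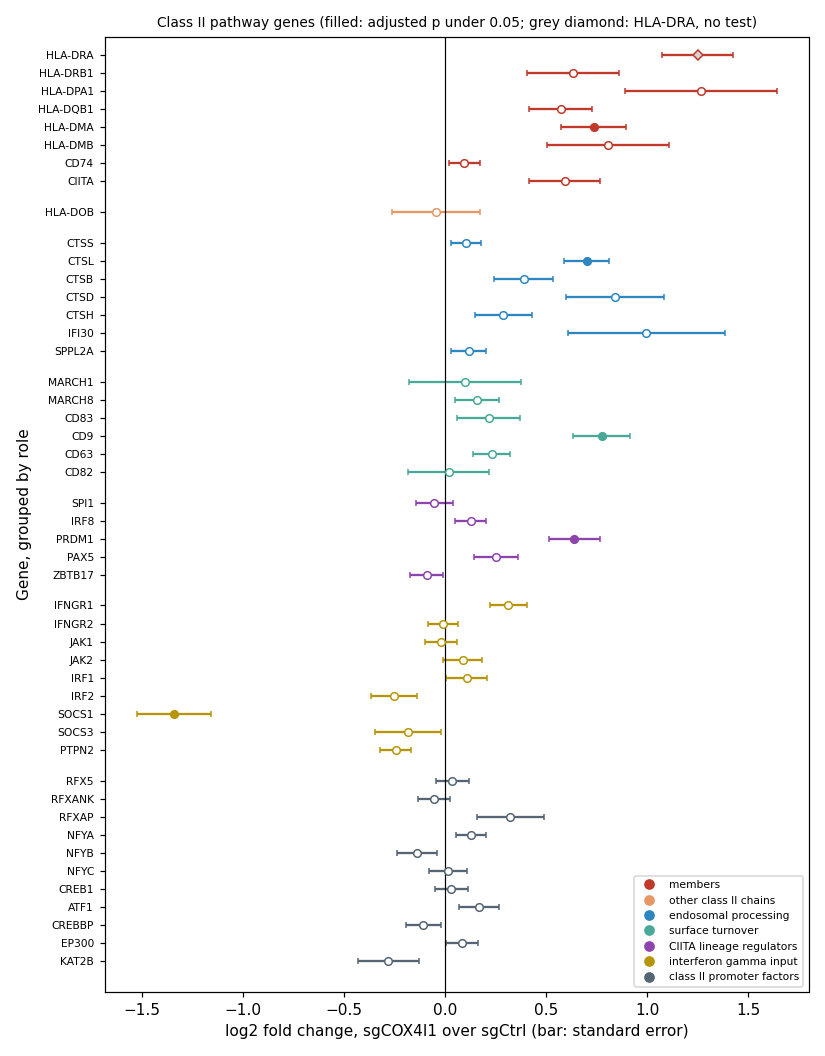
The log2 fold change of sgCOX4I1 over sgCtrl (x axis, bar for the standard error) of tested class II members and pathway genes, grouped by role (y axis), with filled circles for an adjusted p under 0.05 and a grey diamond for HLA-DRA, which has no test. HLA-DMA, CTSL, CD9 and PRDM1 are filled above 0 and SOCS1 is filled below 0, and the promoter factors lie between -0.28 and 0.32.

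Class I genes gave a point of reference. Of 13 class I genes tested, none was called by edgeR, DESeq2 or limma-voom, against 2.08% of all tested genes in edgeR. An unadjusted p under 0.05 in edgeR was reached by 3 of the 13 and by 2054 of the 11861 tested genes. Log2 fold changes above 0 were found in 10 of the 13, against 49.4% of all tested genes, and the list median was 0.14. In 6 of the 13, every sgCOX4I1 library lay above every sgCtrl library, which was the case for 11.2% of all tested genes. The closest to a call were TAP2 at 0.41 (adjusted p = 0.114), HLA-F at 0.70 (adjusted p = 0.215) and HLA-B at 0.17 (adjusted p = 0.284) in the Benjamini-Hochberg adjusted edgeR test. The median of the 7 tested class II members other than HLA-DRA was 0.63, and it was 0.61 without HLA-DPA1. HLA-DPA1 met the filter only with its sgCOX4I1 libraries counted. These members were picked with results known, and the difference between the lists was not tested.

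Markers of other class II positive cells and of T cells were read beside these values. None of these markers was called by edgeR or limma-voom, nor by DESeq2, which gave no adjusted p for FCER1A and CLEC9A. In edgeR, 2.08% of all tested genes were called. An unadjusted p under 0.05 in edgeR was reached by 1 each of the B cell, dendritic cell and monocyte lists, and by 2054 of the 11861 tested genes. Of 6 B cell markers only PAX5 was tested and each of the others was below 1 CPM, and the summed level was 16.9 to 19.7 CPM in sgCtrl and 19.5 to 21.8 CPM in sgCOX4I1. Of 8 dendritic cell markers, 4 were tested, the sum was 48.2 to 57.9 CPM in sgCtrl and 49.5 to 51.3 CPM in sgCOX4I1, and XCR1 and LAMP3 were at 0 in every library. FCER1A, a dendritic cell and mast cell receptor chain, met the filter only through the sgCOX4I1 libraries and had means of 0.298 and 0.947 CPM (log2 fold change 1.68, adjusted p = 0.0641, edgeR quasi-likelihood test, Benjamini-Hochberg). Of 8 monocyte and macrophage markers, 6 were tested and none was called. Of these 6, 5 had log2 fold changes above 0, as did 49.4% of all tested genes. The 6 values ran from -0.16 to 0.69 with a median of 0.37. The sum over the 8 markers was 209 to 341 CPM in sgCtrl and 227 to 331 CPM in sgCOX4I1. T cell markers were too low to test, with sums of at most 0.349 CPM and CD3D and CD3G at 0 in every library. The part of these cell types in the class II values was not tested.

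Genes with a pattern like that of HLA-DRA were found by Pearson's r of log2 CPM over the 6 libraries among 11324 genes of at least 1 CPM. Among the closest were GTF2H3 (0.993), POP1 (0.991), FAH (0.991) and OPA1 (0.987). The likeness rests on 6 points in 2 groups and on libraries that are shared by all genes, and it is given without a test. GTF2H3, a subunit of the transcription factor TFIIH, stood at 74.8, 71.7 and 72.6 CPM in sgCtrl, against 97.5, 93.8 and 97.2 CPM in sgCOX4I1, so that its pattern was like that of HLA-DRA at a smaller log2 fold change of 0.40. Among the members ranked, HLA-DMA was closest to HLA-DRA (r = 0.942, place 112), followed by HLA-DQB1 (0.857, place 568), CIITA (0.823, place 775), HLA-DRB1 (0.743, place 1214), HLA-DMB (0.658, place 1812) and CD74 (0.542, place 2535). HLA-DPA1 was not ranked, because its mean over the libraries was under 1 CPM.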

How the data were processed

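The authors deposited whole-number counts per gene symbol for 6 libraries, without normalization, made from directional mRNA libraries. The methods name Trimmomatic, Bowtie2 against GRCh38.p14 and RSEM, whereas the submitters' processing notes list STAR 2.6.0a and the column names point to HTSeq and marked duplicates. How reads shared by class II paralogs, alleles absent from the reference or the opposite strand were counted is not given in the sources used here. Columns were matched to samples by letter and guide number. Replicates differed by more than sampling noise.

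Counts were tested with edgeR 4.0.16 in R 4.3.3 (TMM, its filter on low counts, quasi-likelihood test without covariates, Benjamini-Hochberg adjustment over 11861 genes), and the scripts were tested on simulated counts. Alternatives were DESeq2 1.42.0, limma-voom (limma 3.58.1), other scalings and filters, thinned counts, a replicate block and leaving out each library. Gene coordinates are from GENCODE on GRCh38. The members and lists were chosen with earlier results of these data known. Genes named are the members, COX4I1, in each pathway list the called genes and the 3 smallest adjusted p, class II chains with counts, and the 5 genes most like HLA-DRA. A gene that this rule names is not reported here. MARCH1, BRD2, FCER1A, CLEC9A, LYZ and MPO were named after their values were seen.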

Additional observations from a re-analysis of the deposited data

How the results depend on the processing

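The log2 fold change of HLA-DRA kept its direction under all 14 alternatives, from 1.15 to 1.32. For the other members, 96 values with an adjusted p were recomputed, of which 86 kept their direction and their side of the threshold, 3 lost and 7 gained the call, and 0 turned. The median of the 8 tested members (0.68) ranged from 0.54 to 0.81 with each library left out. It includes HLA-DRA, selected on its rise, and HLA-DPA1, which met the filter only with its sgCOX4I1 libraries counted. With all libraries, the median was 0.63 without HLA-DRA and 0.61 without both. The number of other members called (1) was 0 to 2 with each library left out, 3 without a filter on low counts (CIITA, HLA-DMA, HLA-DQB1) and 5 with the replicate block (those and HLA-DMB and HLA-DPA1). Genes called at an adjusted p (247) numbered 24 to 561 with each library left out, 437 by DESeq2, 537 without the filter and 1408 with the replicate block. With the 2-fold limit added (24), they numbered 9 to 50, 41 without the filter and 57 with the replicate block. The cause of these shifts was not tested.

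The labels do not say that libraries of the same number were handled together. The deviations of same-numbered libraries correlated at 0.382 for #1, -0.0244 for #2 and 0.294 for #3. Libraries #1 and #3 correlated best with their own number, and those of #2 did not. Whether the numbers mark a shared source of variation was not tested, and the calls of the blocked fit are used only among the alternatives counted above. Low counts limit HLA-DPA1, HLA-DPB1 and HLA-DQA1. HLA-DPA1 had no adjusted p in DESeq2 and gave no value when at least 10 counts were required in every library.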
